A study of Mus musculus with 8 samples.

Results

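The minichromosome maintenance (MCM) genes measured here were Mcm2, Mcm4, Mcm5, Mcm6, Mcm7 and Mcm9, and the array named 6 of them among 5822 genes with a single symbol. They were taken by symbol from the probe annotation, features of 1 gene were averaged, and a deposited value of exactly 0 was read as missing. RNA came from cultured cortical astrocytes of neonatal C57BL/6j mice that lacked connexin43, the main gap junction protein of astrocytes (Cx43 KO, 4 arrays), or were wild type (WT, 4 arrays), and no allele, agent or time in culture is given in the labels. Each array set astrocyte RNA against a pool of adult tissues of both sexes, and each value is a log2 ratio of astrocytes over that pool, centred on the array's median, with base 2 assumed. Each of 4 lot batches in the labels held 1 Cx43 KO and 1 WT array. Whether the samples of a genotype were separate cultures or animals is not stated, and the p-values therefore cover only sample-to-sample spread, part of which may be technical. The title of Cx43 KO 3 names Cx43 without KO, and the connexin43 transcript (Gja1) was not analysed here, so the genotypes were not checked by the targeted transcript. In RNA from a whole culture, fewer cells of a type and less RNA per cell cannot be told apart.

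The ring of MCM2 to MCM7 is the motor of the replicative helicase, the enzyme that unwinds DNA ahead of the replication fork. It is loaded onto origins in G1 by the origin recognition complex with Cdc6 and Cdt1, and it becomes active in S phase when Cdc45 and the GINS complex join it. Genes of the ring are known targets of E2F transcription factors and are high in dividing cells. MCM9 is not part of that ring: it works with MCM8 in homologous recombination and has a role in mismatch repair. Of the ring, Mcm3 was not analysed here, and neither was Mcm8.

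RefSeq promoter windows of build GRCm38.p6, reaching from 250 bases before the gene start to 50 bases after it, were available for 5 of the 6 genes, in 6 windows. An E2F match was searched on both strands as TTTGGCGC, TTTCGCGC, TTTGCCGC or TTTCCCGC. It occurred in 3 windows, 1 each of Mcm5, Mcm6 and Mcm7, while 2.26% of 32851 windows of the same length held one. Mcm7 had 2 windows, and the second, at another start of the gene, held no E2F match. A CCAAT box, searched as CCAAT on both strands, occurred in all 6 windows, while 37.4% of all windows held one. The 250 bases before the start of Mcm5, Mcm6 and Mcm7 are shown because they hold the E2F matches, and capitals mark the E2F matches. They lie at chr8:75109259-75109508 on the plus strand for Mcm5, chr1:128359706-128359955 on the minus strand for Mcm6 and chr5:138171884-138172133 on the minus strand for Mcm7, each written 5′ to 3′ along the gene.
Mcm5: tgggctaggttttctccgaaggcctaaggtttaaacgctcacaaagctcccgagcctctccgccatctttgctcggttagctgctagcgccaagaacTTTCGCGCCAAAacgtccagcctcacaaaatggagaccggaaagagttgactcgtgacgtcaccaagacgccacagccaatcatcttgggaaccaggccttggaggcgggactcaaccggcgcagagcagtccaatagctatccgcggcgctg
Mcm6: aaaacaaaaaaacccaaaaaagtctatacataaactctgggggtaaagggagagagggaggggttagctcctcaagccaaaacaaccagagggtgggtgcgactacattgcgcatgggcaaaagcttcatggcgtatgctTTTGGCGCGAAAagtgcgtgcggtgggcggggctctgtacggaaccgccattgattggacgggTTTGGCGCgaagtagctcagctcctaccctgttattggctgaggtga
Mcm7: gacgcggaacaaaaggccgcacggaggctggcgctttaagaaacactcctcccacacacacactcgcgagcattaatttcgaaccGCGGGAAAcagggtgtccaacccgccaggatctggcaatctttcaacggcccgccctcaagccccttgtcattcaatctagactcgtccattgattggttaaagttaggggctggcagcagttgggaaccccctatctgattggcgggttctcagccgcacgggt
With the gene start counted as base 1 and the base before it as -1, the capitals of Mcm5 hold a match on the gene's strand that begins at -153, overlapped by one on the other strand at -149. Mcm6 held such an overlapping pair at -110 and -106, and a further match at -47. Mcm7 held a match on the other strand at -165, and a further match beginning 17 bases into the transcript, outside the printed stretch, which overlaps a CCAAT box there. A match describes these letters and is neither a binding site nor a cause of any level. The absence of a match in the windows of Mcm2 and Mcm9 and in the second window of Mcm7 says only that these letters were not in them.

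Over the 8 arrays, the ring genes did not lie on 1 side of the tissue pool. Mcm6 and Mcm4 lay above the pool on all 8 arrays, with mean log2 ratios of 1.17 and 1.09, or 2.25 and 2.13 times the pool. Mcm2 lay above it on 6 of 7 arrays, with a mean of 0.55. Mcm5 was close to it, at -0.05 and above it on 5 of 8 arrays, and Mcm7 lay below it on every array, at -0.83 or 0.562 times the pool. Mcm9, outside the ring, averaged -0.17 and lay above the pool on 3 arrays. These are ratios to a pool and do not rank the genes by abundance. Among named genes with 8 values, whose median level was 0.04, 92.5% lay below the mean of Mcm6, 91.3% below that of Mcm4 and 13.0% below that of Mcm7. The order of the genes was partly fixed: Mcm4 and Mcm6 were the highest pair and Mcm7 the lowest on all 8 arrays, while Mcm4 led on Cx43 KO 1, Cx43 KO 2, WT 1 and WT 3 and Mcm6 led on the other 4. In the order of means Mcm6, Mcm4, Mcm2, Mcm5, Mcm9 and Mcm7, the neighbours Mcm6 and Mcm4, Mcm2 and Mcm5, and Mcm5 and Mcm9 differed by less than the larger of their SDs over arrays, though Mcm2 lay above Mcm5 on all 7 arrays that measured both.

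The spread over arrays also differed between the genes. Mcm5 had an SD of 0.77 and a range of 2.10, and 96.0% of named genes with 8 values had a smaller SD. Mcm2, Mcm4 and Mcm6 had SDs of 0.48, 0.43 and 0.43. Mcm7 had an SD of 0.30, close to the median gene's 0.31, and Mcm9 one of 0.23. Mcm9 was measured by 2 features, the other genes by 1, and on the 5 arrays where both gave a ratio they differed by at most 0.52.

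The comparison of Cx43 KO with WT addresses what changes in astrocytes without connexin43, and in it each of the 6 MCM genes had a lower mean in Cx43 KO, with differences of -0.77 to -0.16 on the log2 scale, or 0.588 to 0.893 times WT. The 6 genes had a median difference of -0.40, while all 3505 genes and features tested had a median of 0.02. Among all tested, 47.4% had a lower mean in Cx43 KO. None of the 6 passed the test (limma over all 3505, adjusted p below 0.05), where 0% of all passed. None lay below an unadjusted p of 0.05 either, where 263 of all tested did, 135 higher and 128 lower, the lower ones being 3.65%. The smallest adjusted p of the whole table was 0.177. The ring genes follow, the gate pair Mcm2 and Mcm5 before Mcm4, Mcm6 and Mcm7, and then Mcm9.

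Mcm2, a subunit at the ring's gate and a histone chaperone, had log2 ratios of -0.06, 0.11, 0.79 and 0.61 on Cx43 KO 1 to 4, against 1.31, 0.83 and 0.27 on WT 1, WT 3 and WT 4, with no ratio on WT 2. The lowest values were those of Cx43 KO 1 and 2, under all WT arrays, and the other Cx43 KO arrays lay within the WT range. Mcm2 averaged 0.36 ± 0.40 in Cx43 KO (SD, n = 4) and 0.80 ± 0.52 in WT (SD, n = 3), a difference of -0.44 (SE 0.30, limma adjusted p = 0.776).

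Mcm5 forms the gate of the ring together with Mcm2, and it showed the largest difference of the 6 genes and the widest spread. Its log2 ratios were -1.04, -1.19, 0.11 and 0.40 on Cx43 KO 1 to 4, against 0.91, 0.51, 0.43 and -0.49 on WT 1 to 4. The genotypes overlapped: Cx43 KO 1 and 2 were the lowest arrays, and WT 4 lay below Cx43 KO 3 and 4. Mcm5 averaged -0.43 ± 0.80 in Cx43 KO and 0.34 ± 0.59 in WT (SD, n = 4 each), a difference of -0.77 (95% interval -1.67 to 0.13, limma adjusted p = 0.696).

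Mcm4, which with Mcm6 and Mcm7 forms the subcomplex that can unwind DNA on its own in vitro, had log2 ratios of 0.81, 0.93, 0.96 and 0.88 on Cx43 KO 1 to 4, against 1.90, 1.02, 1.60 and 0.61 on WT 1 to 4. The Cx43 KO arrays lay close together and below WT 1, WT 2 and WT 3 but above WT 4. Mcm4 averaged 0.90 ± 0.07 in Cx43 KO and 1.28 ± 0.58 in WT (SD, n = 4 each), a difference of -0.39 (95% interval -0.97 to 0.20, adjusted p = 0.776 by limma).

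For Mcm6 the log2 ratios were 0.62, 0.46, 1.66 and 1.23 on Cx43 KO 1 to 4, against 1.59, 1.38, 1.24 and 1.17 on WT 1 to 4. Here Cx43 KO 1 and 2 lay below all WT arrays, Cx43 KO 4 lay among them and Cx43 KO 3 was the highest array of all. Mcm6 averaged 0.99 ± 0.56 in Cx43 KO and 1.34 ± 0.18 in WT (SD, n = 4 each), and the difference was -0.35 (95% interval -0.94 to 0.23, adjusted p = 0.778 by limma).

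Mcm7 had the smallest unadjusted p of the 6, 0.0531 by limma, which ranked 277 among the 3505 tested. Its log2 ratios were -1.35, -1.23, -0.69 and -0.87 on Cx43 KO 1 to 4, against -0.74, -0.53, -0.67 and -0.57 on WT 1 to 4. Only Cx43 KO 3 overlapped with WT, lying above WT 1. Mcm7 averaged -1.04 ± 0.31 in Cx43 KO and -0.63 ± 0.09 in WT (SD, n = 4 each), a difference of -0.41 (SE 0.19, limma adjusted p = 0.666).

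Mcm9 had the smallest difference of the 6. Its log2 ratios were -0.37, 0.04, -0.20 and -0.49 on Cx43 KO 1 to 4, against -0.33, 0.13, 0.07 and -0.23 on WT 1 to 4. The genotypes overlapped over most of their range, and in both the highest array was that of lot batch 2. The difference was -0.16 (95% interval -0.58 to 0.25, limma adjusted p = 0.858). Cx43 KO 2, WT 2 and WT 3 rested on 1 of its 2 features.

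**Figure D1:**
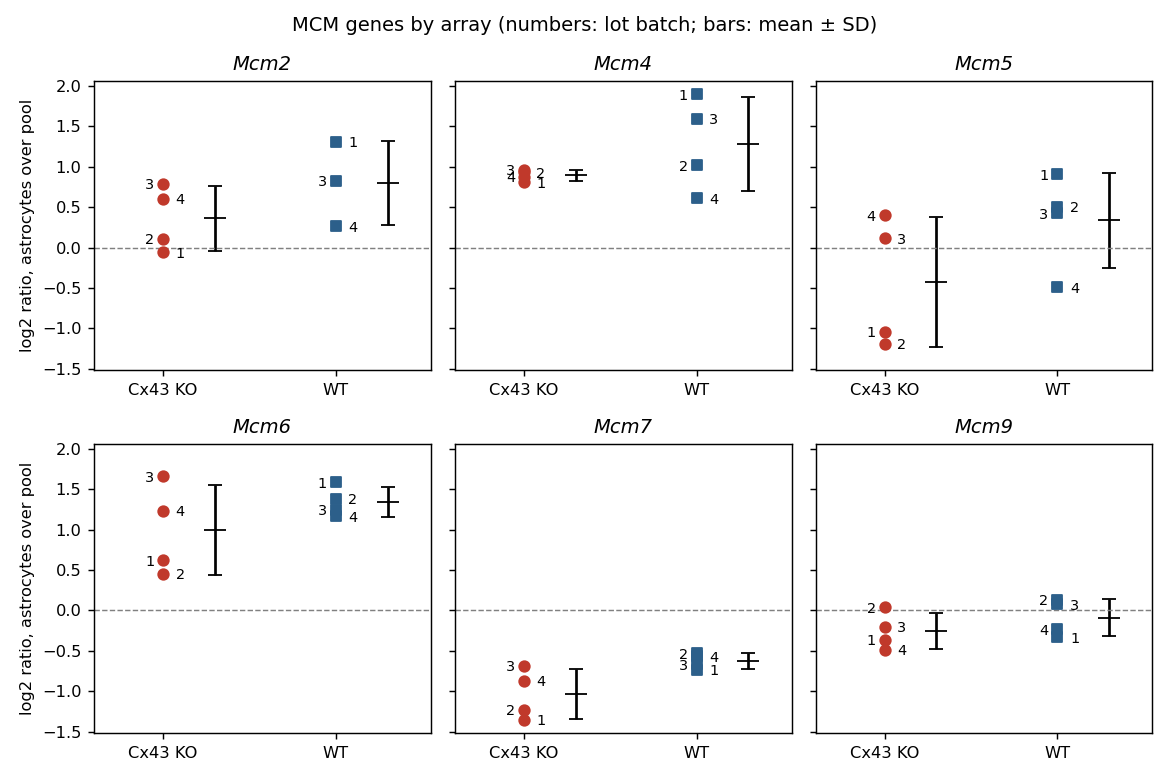
Log2 ratio of astrocytes over the tissue pool for each MCM gene, with 1 point per array, Cx43 KO left and WT right in each panel, the lot batch as a number beside each point, and the mean with SD (n = 4, but 3 for Mcm2 in WT). Arrays 1 and 2 of Cx43 KO lie lowest in the panels of Mcm2, Mcm5, Mcm6 and Mcm7, and the genotypes overlap in every panel.

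Within lot batches, the ring genes lay lower in Cx43 KO in batches 1 and 2 and not in batch 4. In lot batch 1 all 6 genes were lower in Cx43 KO, with a median difference of -1.03, while 47.5% of all genes and features were lower there. In lot batch 2 all 5 genes with a value were lower, with a median of -0.70, beside 51.8% of all. In lot batch 3 it was 5 of 6, with a median of -0.15, beside 45.4% of all, and in lot batch 4 it was 2 of 6, Mcm7 and Mcm9, with a median of 0.17, beside 52.3% of all. The median over all tested lay between -0.03 and 0.05 in the 4 lot batches. A lot batch holds 1 array per genotype, so these differences have no replicate error of their own.

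Mcm5 carried the widest contrast, with differences of -1.94, -1.70, -0.31 and 0.89 in lot batches 1 to 4. Mcm2, measured in 3 of them, differed by -1.37, -0.04 and 0.34 in lot batches 1, 3 and 4. Mcm6 differed by -0.97, -0.92, 0.42 and 0.06. Mcm4 differed by -1.09, -0.09, -0.64 and 0.27, so that in lot batch 2 it stayed near WT where Mcm5 and Mcm6 lay lower. Mcm7 differed by -0.62, -0.70, -0.02 and -0.30, and Mcm9 by -0.04, -0.09, -0.27 and -0.25. Of the 5 MCM genes with a value in all lot batches, Mcm7 and Mcm9 were below 0 in each, beside 8.82% of 2596 genes and features. For Mcm9 this held only for the average of its 2 features. On the feature measured on every array, Cx43 KO 4 was at -0.488 and WT 4 at -0.494. On the other feature, Cx43 KO 1 was at -0.255 and WT 1 at -0.289. Averaged over features, Mcm9 had its larger differences in lot batches 3 and 4, where the mean over the ring genes was -0.12 and 0.25. Its smaller ones were in lot batches 1 and 2, where that mean was -1.20 and -0.85.

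These means depended on single lot batches. Without lot batch 1 the median of the 6 genes was -0.18, and Mcm2 differed by -0.04, Mcm5 by -0.37, Mcm4 by -0.15 and Mcm6 by -0.15. Without lot batch 2 the median was -0.33, and Mcm6 differed by -0.16 and Mcm5 by -0.46. Without lot batch 3 the median was -0.55, and Mcm6 differed by -0.61 and Mcm7 by -0.54. Without lot batch 4 it was also -0.55, and Mcm5 differed by -1.32, Mcm2 by -0.79 and Mcm4 by -0.60.

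**Figure D2:**
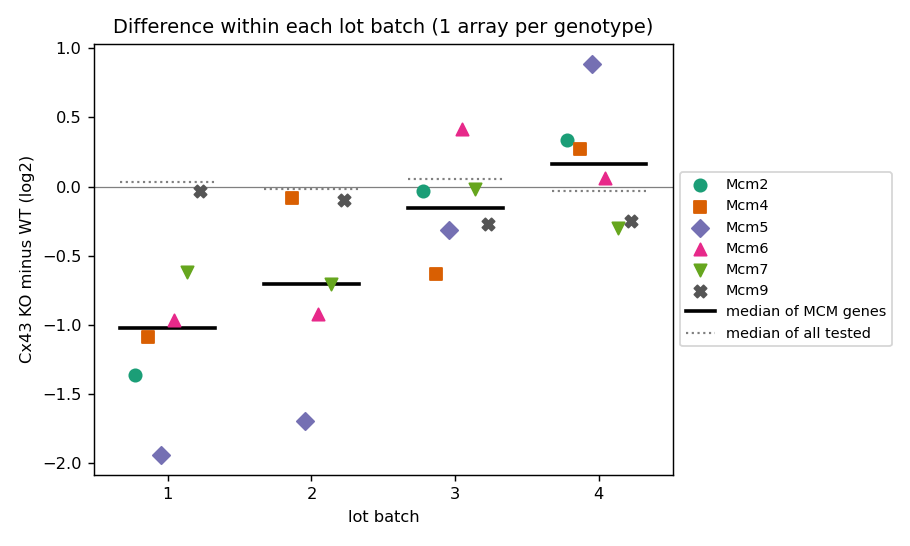
Log2 difference, Cx43 KO minus WT, within each lot batch, 1 symbol per MCM gene, with the median of the MCM genes as a solid line and the median of all tested genes and features as a dotted line. The MCM median lies at -1.03 in lot batch 1 and at 0.17 in lot batch 4, while the dotted lines stay near 0.

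Coordination between the subunits was measured as the correlation of 2 genes over the arrays, for 15 pairs, with two-sided exact permutation tests and Benjamini-Hochberg adjustment over the 15. The tests shuffled arrays across genotypes and lot batches. A shift that 2 genes share by genotype or lot batch therefore counts as coordination in their p-values. The arrays share the reference pool, and each lot batch holds only 2 arrays, so no correlation within a batch could be computed. All 10 pairs of ring genes correlated above 0, with a mean r of 0.70 and a range of 0.23 to 0.95. The 5 pairs with Mcm9 had a mean r of 0.05 and a range of -0.09 to 0.26. By Spearman's rho these 5 pairs lay higher, between 0.17 and 0.62. Over 2338203 pairs of 2163 named genes with 8 values, the median r was 0.02, the quartiles were -0.31 and 0.35, and 51.4% of pairs lay above 0. Genes are not independent replicates, and this background is a description.

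Mcm2 and Mcm5, the subunits of the gate, gave the highest correlation, r = 0.95 over 7 arrays (exact permutation p = 0.00218, adjusted 0.0327). Its Spearman rho was 0.93 (exact permutation p = 0.00675, adjusted 0.101), and without the 2 arrays farthest from the median of Mcm2 r was 0.92. Of all gene pairs, 99.9% had a lower r, but theirs were taken over 8 arrays and this one over 7. Mcm5 and Mcm6 followed with r = 0.88 over 8 arrays (exact permutation p = 0.0061, adjusted 0.0458) and a rho of 0.76 (exact permutation p = 0.0368, adjusted 0.11). Without Cx43 KO 1 and 2, the arrays farthest from the median of Mcm5, r was 0.44, so this relation rests on those arrays. Ranked by r with Mcm5 among 2162 other genes, Mcm6 came at place 13, and Mcm5 came at place 11 for Mcm6. For the other ring pairs with 8 values, such places ran from 15 (Mcm6 for Mcm7) to 620 (Mcm7 for Mcm4).

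The other pairs did not pass after adjustment. Mcm2 with Mcm6 gave r = 0.86 (exact permutation p = 0.0137, adjusted 0.0685; rho 0.86, p = 0.0238) and 0.82 without its 2 farthest arrays. Mcm2 with Mcm4 gave r = 0.82 (exact permutation p = 0.0185, adjusted 0.0692; rho 0.82, p = 0.0341) and 0.62 without them. Mcm6 with Mcm7 gave r = 0.83 (exact permutation p = 0.0231, adjusted 0.0693; rho 0.50, p = 0.216), but -0.08 without Cx43 KO 1 and 2. Likewise Mcm5 with Mcm7 gave r = 0.73 (exact permutation p = 0.0436, adjusted 0.109; rho 0.52, p = 0.197), but -0.38 without those arrays. Both relations of Mcm7 rest on Cx43 KO 1 and 2. Outside its pair with Mcm2, Mcm4 gave r = 0.65 with Mcm5, 0.43 with Mcm6 and 0.23 with Mcm7. None of these r values reached an exact permutation p of 0.05. The rho values were 0.76 with Mcm5 (exact permutation p = 0.0368, adjusted 0.11), 0.67 with Mcm6 (p = 0.0831) and 0.26 with Mcm7 (p = 0.536). Mcm7 with Mcm2 gave r = 0.66 and a rho of 0.54. Mcm7 with Mcm9 gave r = 0.26 and a rho of 0.62, and r rose to 0.77 without Cx43 KO 1 and 2. Without those arrays Mcm9 gave r = 0.03 with Mcm5 and -0.06 with Mcm6. Mcm4 with Mcm9 gave r = 0.14, and 0.47 without WT 1 and WT 3. The difference between ring pairs and Mcm9 pairs thus depended on a few arrays, most clearly for Mcm7. By Spearman's rho 0 of the 15 pairs passed after adjustment.

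The mean r over the ring pairs was 0.59 after genotype means were subtracted and 0.78 after lot batch means were subtracted. A lot batch holds 1 array per genotype, so the 0.78 rests on 1 difference per lot batch. It also rises when both genes of a pair have a lower mean in Cx43 KO, as all ring genes did. It was 0.76 within the 4 Cx43 KO arrays and 0.07 within the 4 WT arrays, where 4 points give little precision, and that contrast was not tested. Without Cx43 KO 1 and 2, the arrays farthest from the median of the ring genes' mean, it was 0.32.

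**Figure D3:**
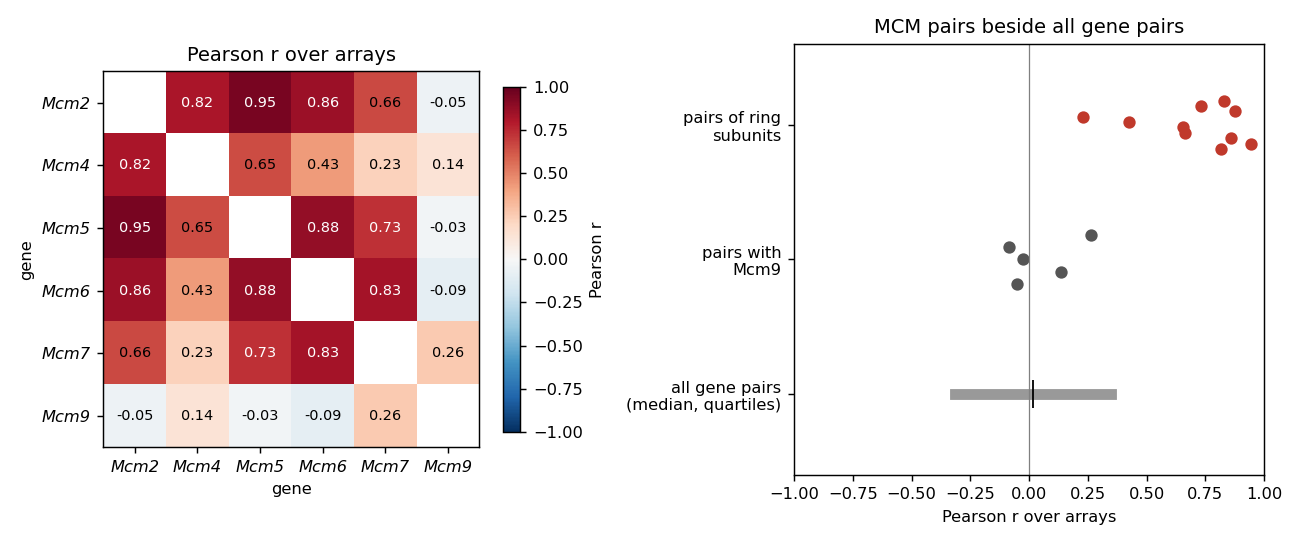
Pearson r over the arrays for each pair of MCM genes as a matrix (left), and the same values for ring pairs and for pairs with Mcm9 above the median and quartiles of all gene pairs (right). The 10 ring pairs lie between 0.23 and 0.95, and the 5 pairs with Mcm9 lie between -0.09 and 0.26.

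The named genes whose profiles were most like the mean of the 5 MCM genes with 8 values were Arhgap19, Ppia, Prkacb, Alpl and Kif4, with r from 0.97 to 0.93 over 8 arrays among 2158 genes. Arhgap19 ran from -1.91 to -0.45 on the Cx43 KO arrays and from -0.67 to 0.23 on the WT arrays, and it differed by -1.03 (SE 0.34, limma adjusted p = 0.654). Kif4, a chromosome-bound kinesin of mitosis, differed by -0.77 (SE 0.27, limma adjusted p = 0.655), and the peptidyl-prolyl isomerase Ppia by -0.30 (SE 0.21, limma adjusted p = 0.778). After genotype means were subtracted, 2 of these 5 genes, Arhgap19 and Ppia, were still among the first 5. Of 18 replication and cell cycle genes that could be ranked in the same way, 14 had an r above 0 and 8 an r above 0.5, with a median of 0.35. Over all 2158 genes ranked, r was 0.57 at place 206 and 0.46 at place 327. It was 0.0058 at place 1007 and -0.02 at place 1037. Among the 18, the mitotic transcription factor Foxm1 ranked 10 (r = 0.88), the mitotic kinases Cdk1 and Pbk ranked 14 and 16 (r = 0.86 for both), and the flap endonuclease Fen1 and the origin subunit Orc6 ranked 50 and 53 (r = 0.76 for both). Others showed little relation, such as the fork protein Wdhd1 (r = 0.06), the E2F family member E2f4 (r = 0.02) and the deaminase Dctd (r = -0.02). At the other end, the G1 kinase Cdk6 ranked 2050 (r = -0.71) and the topoisomerase Top1 ranked 1892 (r = -0.57).

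Replication and cell cycle genes outside the family were listed as 159 genes, of which 75 were on the array and 32 could be tested. Of these 23 were lower and 9 higher in Cx43 KO by their means, with a median difference of -0.24, while 47.4% of all tested were lower. None of the 32 passed (limma adjusted p from 0.471 to 0.986), and 6 lay below an unadjusted p of 0.05. Without lot batch 1 the split was 15 lower and 19 higher of 34, with a median of 0.03.

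Of the factors that load the ring, Orc6 was the only one tested, and it differed by -0.44 (SE 0.19, limma adjusted p = 0.658). Its log2 ratios were 0.41, 0.28, 0.59 and 0.40 on Cx43 KO 1 to 4, against 0.99, 1.24, 0.63 and 0.57 on WT 1 to 4, so that Cx43 KO 3 overlapped with WT 4. Genes that activate the helicase or travel with the fork split evenly, 2 lower and 2 higher of 4 tested, with a median of -0.03. Gins2, a subunit of the GINS complex, differed by -0.30 (SE 0.25), Ticrr, which brings Cdc45 to the ring, by -0.12 (SE 0.23) and the fork protein Wdhd1 by 0.11 (SE 0.25). Mcm10, a replication factor of similar name that is no ring subunit, differed by -0.24 (SE 0.30). Among polymerases, clamp and maturation factors 3 of 5 were lower, with a median of -0.10: Fen1 differed by -0.59 (SE 0.21, limma adjusted p = 0.655), the polymerase subunit Pole3 by -0.24 (SE 0.21) and Top1 by 0.29 (SE 0.25).

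All 4 tested genes of nucleotide supply had lower means, with a median of -0.35. Thymidine kinase Tk1 differed by -0.52 (SE 0.37), deoxycytidine kinase Dck by -0.50 (SE 0.35) and the deoxycytidylate deaminase Dctd by -0.21 (SE 0.19). The list of E2F factors, pocket proteins and G1/S regulators had 2 lower and 4 higher of 6, with a median of 0.10. In it Cdk2, the kinase of S phase entry, differed by -0.50 (SE 0.18, limma adjusted p = 0.655), Cdk6 by 0.44 (SE 0.27) and the retinoblastoma gene Rb1 by 0.20 (SE 0.19). Cdk2 had log2 ratios of -0.84, -0.80, -0.74 and -0.46 on Cx43 KO 1 to 4, against 0.12, -0.44, -0.30 and -0.21 on WT 1 to 4. The genotypes did not overlap, but Cx43 KO 4 at -0.463 lay close to WT 2 at -0.442. Cdk2 was named for its small p in this list, which favours such a separation. Within lot batches 1 to 4 its differences were -0.96, -0.36, -0.45 and -0.25. They were below 0 in each, as for Mcm7, beside 8.82% of 2596 genes and features.

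Genes of G2 and mitosis had 8 lower and 1 higher of 9, with a median of -0.44, while 47.4% of all tested were lower. The median was -0.20 without WT 1 (7 lower, 2 higher) and -0.16 without lot batch 1 (6 lower, 4 higher of 10), and it was -0.66 without Cx43 KO 4 and -0.79 without lot batch 4, with 9 of 9 lower in both. Pbk differed by -1.43 (SE 0.36, limma adjusted p = 0.471), Foxm1 by -0.69 (SE 0.21, limma adjusted p = 0.578) and Racgap1, a regulator of cell division, by -0.86 (SE 0.34, limma adjusted p = 0.655). Foxm1 had log2 ratios of -1.57, -1.49, -1.05 and -1.31 on Cx43 KO 1 to 4, against -0.19, -0.76, -0.78 and -0.92 on WT 1 to 4, so that every Cx43 KO array lay below every WT array. Foxm1 was named for its small p in this list, which favours such a separation. How many of all tested genes separated so was not counted. Uhrf1, which keeps DNA methylated through replication, was the only tested gene of histone and chromatin supply and differed by -0.49 (SE 0.36). Mre11a, the only tested gene of the recombination pathway in which MCM9 works, differed by -0.04 (SE 0.18).

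**Figure D4:**
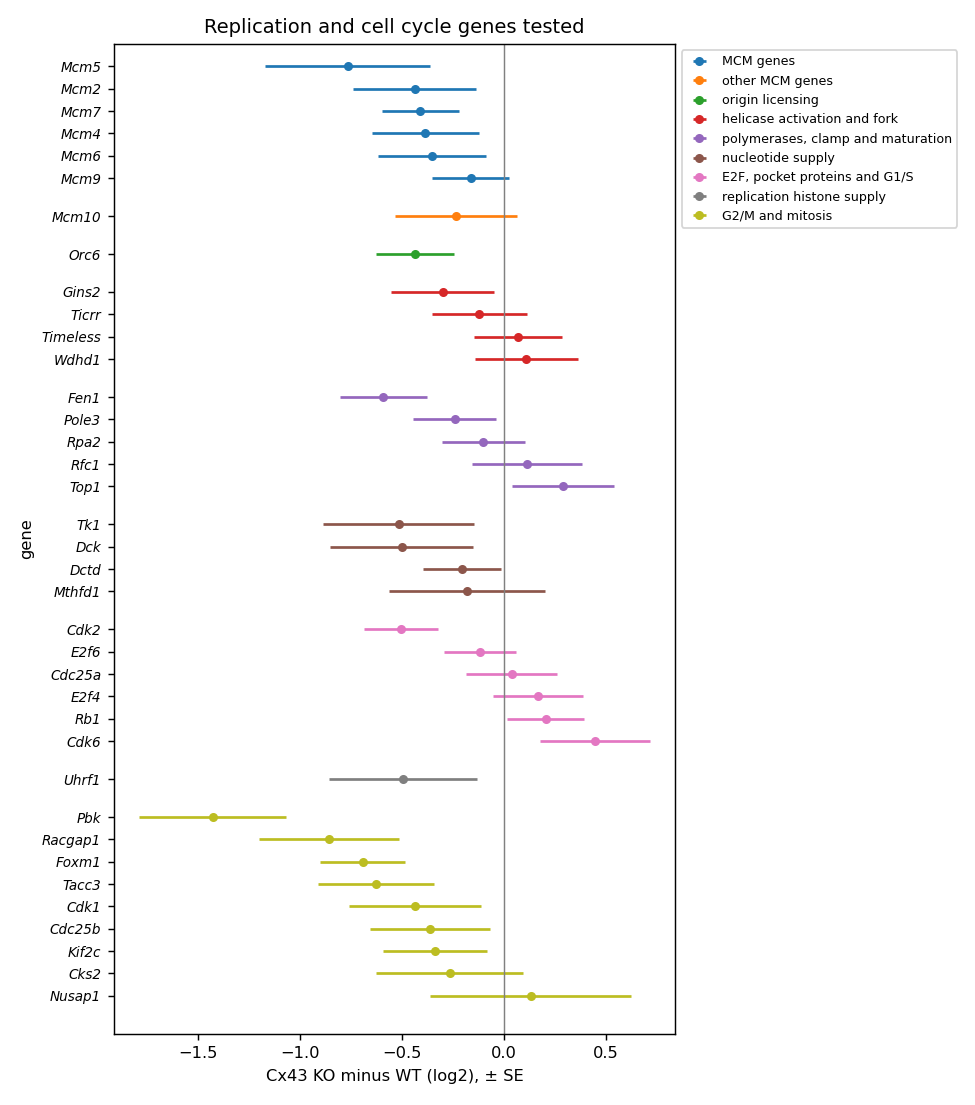
Log2 difference, Cx43 KO minus WT, with its standard error for the MCM genes and for the tested genes of the replication and cell cycle lists, grouped by list. All 6 MCM genes and 8 of 9 genes of G2 and mitosis lie left of 0, and 4 of 6 genes of the E2F and G1/S list lie right of it.

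Markers of other cell types also varied over the same arrays. Averaged over Mcm4, Mcm5, Mcm6 and Mcm7, the log2 ratio was -0.24, -0.26, 0.51 and 0.41 on Cx43 KO 1 to 4, against 0.91, 0.59, 0.65 and 0.18 on WT 1 to 4, and only Cx43 KO 1 and 2 were outside the WT range. The mean of 6 fibroblast, meningeal and mural markers with 8 values, of 8 on the array and 20 listed, was -0.99, -0.52, 0.86 and 2.12 on Cx43 KO 1 to 4, against 2.20, 0.59, 0.96 and 1.21 on WT 1 to 4. The mean of 7 microglia and macrophage markers, of 14 on the array and 25 listed, was 0.05, 0.31, 1.22 and 2.51 on Cx43 KO 1 to 4, against 0.70, 1.34, 1.38 and 0.73 on WT 1 to 4. By the means of both lists, Cx43 KO 1 and 2 were again lower than each WT array. Single genes of the microglia list did not all follow. Tyrobp was -0.56 and -0.32 on Cx43 KO 1 and 2, below its lowest WT array at 0.22. Lgmn was 1.58 and 0.81 there, against 0.51 to 0.85 on WT arrays. Rac2 was 0.15 and 0.27 there, against -0.34 to 0.25. Of the microglia list Ctss, Ptprc, Fcer1g and Coro1a had no ratio on any array.

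Astrocyte markers differed in pattern. The mean of Aldoc, Fabp7, Ttyh1 and Cst3, the 4 with 8 values of 9 on the array and 22 listed, was 1.66, 1.75, 1.81 and 0.49 on Cx43 KO 1 to 4, against 1.62, 1.86, 1.72 and 1.93 on WT 1 to 4, so that Cx43 KO 4 stood apart. All 4 lay above the pool, with a median of 1.11, while the astrocyte marker Slc6a9, measured on 7 arrays, lay below it at -1.37, and the 4 adult tissue genes with 8 values, of 27 listed, lay below it, with a median of -3.40. Slc1a2, an astrocyte glutamate transporter, had no ratio on any array. The mean of 3 markers of the oligodendrocyte lineage and neurons, of 17 listed, was -0.52, -0.18, -0.32 and -2.03 on Cx43 KO 1 to 4, against -0.96, -0.11, -0.66 and -0.31 on WT 1 to 4. The part of these markers in the MCM differences was not tested. Without Cx43 KO 4 the median difference of the 6 MCM genes was -0.45, and without WT 1, the array with the highest ring mean, it was -0.26.

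**Figure D5:**
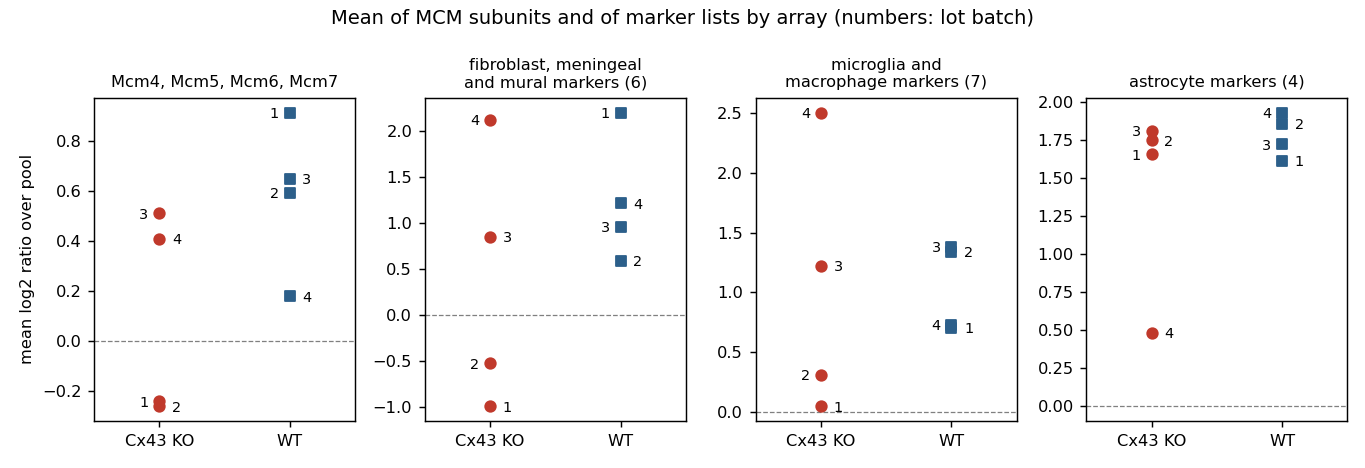
Mean log2 ratio over the pool on each array for Mcm4 to Mcm7 and for 3 marker lists, with Cx43 KO left and WT right, the lot batch as a number beside each point and a scale of its own in each panel. Cx43 KO 1 and 2 lie lowest in the first 3 panels, and Cx43 KO 4 lies apart in the microglia and astrocyte panels.

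Genes next to the MCM genes on their chromosomes were found in the gene table of GRCm38.p6, and 3 of them could be tested. Hmox1, the stress-induced haem oxygenase next to Mcm5 on chromosome 8, had log2 ratios of 2.14, 2.23, 2.18 and 3.92 on Cx43 KO 1 to 4, against 1.00, 1.51, 1.33 and 0.91 on WT 1 to 4. It lay higher on every Cx43 KO array, where Mcm5 had the lower mean, and differed by 1.43 (SE 0.38, limma adjusted p = 0.471). Prkdc, the DNA-dependent protein kinase next to Mcm4 on chromosome 16, differed by -0.0029 (SE 0.16, limma adjusted p = 0.996). Tpra1, next to Mcm2 on chromosome 6, differed by 0.18 (SE 0.16, limma adjusted p = 0.826). Mcm9 lies on chromosome 10 with 5 protein-coding genes between it and Gja1, the gene missing in Cx43 KO, and 0 of those 5 were tested.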

How the data were processed

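RNA of 8 samples was measured on 2-colour arrays, 4 Cx43 KO and 4 WT. The deposited values are log2 ratios of astrocyte RNA (channel 2) over the pool (channel 1), per the labels for the channels; the logarithm's base is assumed, and the dyes, scanner, background correction and normalization were not given in the sources used here. Of 9568 features, 36.6% to 57.6% had a nonzero ratio on an array, medians before centring were 0.09 to 0.32, and the number of arrays and the missing ratios limit precision. The annotation gave 7307 features 1 symbol (5822 symbols), 318 several and 1943 none; 7256 of the 7307 matched the GRCm38.p6 gene table by Entrez number.

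Ratios were centred on each array's median. Rows with at least 3 values per genotype, 3505 (2900 named genes), were tested with limma 3.58.1 (R 4.3.3, statmod 1.5.0), two-sided, Benjamini-Hochberg threshold 0.05; when an array was left out, its genotype needed 2. Correlations and motif counts used numpy 2.4.6, scipy 1.17.1 and pandas 2.3.3, figures matplotlib 3.10.9. Same-numbered arrays share a lot batch per the labels, which pairs them; their deviations from genotype means correlated at r = -0.18, 0.19, -0.13 and -0.19 for lot batches 1 to 4. Scripts were tested on simulated data.

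The members, lists, tests and alternatives were chosen with earlier results of these data known. Genes named were the MCM genes, the 3 of each list with the smallest p, the 5 most alike profiles and tested neighbours. By that rule the marker lists add Fabp7, Slc6a9 and Id4, Lgmn, Rac2 and Tyrobp, Ptgds, Col6a3 and Col3a1, Pdgfra, Map2 and Cnp, and Kap, Sftpb and Sftpc. Alternatives covered centring, normalization, features, the filter, array weights, the lot batch as a block, and leaving out arrays or lot batches.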

Additional observations from a re-analysis of the deposited data

Results flagged for a closer look

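In each group of 4 arrays, the highest or lowest value was compared with the others by Dixon's ratio, for 82 groups in all, and 7 had a value far from the rest, 0 of them in an MCM gene. Chance marks about 1 in 20 such groups. Near the MCM genes, Hmox1 on Cx43 KO 4 was at 3.92, against 2.14 to 2.23 on the other Cx43 KO arrays, and Tpra1 on WT 4 was at 0.35, against 0.0062 to 0.05 on the other WT arrays. Among replication genes, Dck on Cx43 KO 4 was at 0.63, against -0.71 to -0.49 on the other Cx43 KO arrays, Wdhd1 on WT 1 at 0.17, against -0.94 to -0.85 on the other WT arrays, and Mre11a on Cx43 KO 2 at 0.40, against 0.20 to 0.23 on the other Cx43 KO arrays. Prkacb on WT 4 was at -0.14, against -0.0065 to 0.02 on the other WT arrays, and the oligodendrocyte gene Cnp on Cx43 KO 4 at -1.53, against -0.06 to 0.13 on the other Cx43 KO arrays.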

How the results depend on the processing

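All 131 differences of the 6 MCM genes computed under the alternatives lay below 0, and 0 passed (limma adjusted p from 0.150 to 1). The alternatives reuse the same arrays, and none left out lot batches 1 and 2 together. They therefore cannot show the direction without both of these lot batches. Within lot batches 3 and 4, Mcm6 lay above 0 in both (0.42 and 0.06). Mcm2 (-0.04 and 0.34), Mcm4 (-0.64 and 0.27) and Mcm5 (-0.31 and 0.89) changed sign between them. Only Mcm7 (-0.02 and -0.30) and Mcm9 (-0.27 and -0.25) lay below 0 in both. A common direction of the 6 genes thus did not hold in those lot batches. Over the alternatives the differences ran from -0.79 to -0.04 for Mcm2, -0.61 to -0.15 for Mcm4, -1.32 to -0.37 for Mcm5, -0.61 to -0.15 for Mcm6, -0.54 to -0.28 for Mcm7 and -0.26 to -0.09 for Mcm9. With lot batch as the replicate block, Mcm2 differed by -0.35, the median of the 6 was -0.37 and 0 of all tested passed, as without it, and the block changed no call. Leaving out 1 array gave 0 to 4 calls over the whole table, 4 without Cx43 KO 4 and 1 without WT 2, with 0 MCM genes among them. The mean r over all 15 pairs was 0.48, and 0.053 within the WT arrays alone; the cause was not tested. The side of the pool turned for genes near 0. Mcm5 averaged 0.17 without centring, 0.20 with quantile normalization and 0.17 with exact 0 read as a ratio, and Mcm9 averaged 0.045 without centring and 0.051 with quantile normalization. Centring subtracts array medians of 0.09 to 0.32. Quantile normalization was applied to ratios that had not been centred. With exact 0 read as a ratio, Mcm4, Mcm5, Mcm6 and Mcm7 had the same levels and differences as without centring. For these genes it was not a separate alternative. The cause of any remaining shift was not tested. The 32 replication genes outside the family had 15 lower of 34 without lot batch 1, against 23 of 32 with it. The arrays give no intensities here, so signal over background could not be set beside the values.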

Other observations

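Marker genes singled out by the smallest p in their lists, none of which passed (limma), gave differences in both directions. In the astrocyte list, with 5 lower and 2 higher of 7 tested, Fabp7, a fatty acid binding protein, differed by -0.72, the glycine transporter Slc6a9 by -0.40 and the transcription regulator Id4 by -0.71. In the microglia list, with 5 lower and 3 higher of 8, the protease Lgmn differed by 0.46, the GTPase Rac2 by 1.03 and the adaptor Tyrobp by -0.64, and in the fibroblast and mural list, with 4 lower and 2 higher of 6, Ptgds, a prostaglandin synthase of the meninges, by -2.45, and the collagens Col6a3 and Col3a1 by -1.05 and -1.64. In the oligodendrocyte and neuron list, with 3 lower and 1 higher of 4, Pdgfra, a receptor of oligodendrocyte precursors, differed by -2.27, Map2 by -0.62 and Cnp by -0.27. In the adult tissue list, with 2 lower and 2 higher of 4, Kap differed by -0.34, Sftpb by 0.42 and Sftpc by 0.22. Over 8 arrays, r with the MCM mean ran from 0.24 to 0.84 in the 6 fibroblast and mural markers (Col1a1 lowest, Ptgds highest), from -0.45 to 0.80 in the 7 microglia markers (Lgmn lowest, Tyrobp highest) and from -0.46 to 0.36 in the 4 astrocyte markers, with medians of 0.62, 0.43 and -0.03.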
